A study of Mus musculus with 8 samples.

Results

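The genes described here encode the proteins of the cytosolic ribosome. They were chosen by name: protein-coding genes called Rpl or Rps with a number, Rplp0 to Rplp2, and Rpsa, without the S6 kinases (Rps6k), pseudogenes (-ps) and Rps19bp1. Of 27110 genes listed for these mouse livers, 84 fitted this rule. The small subunit had 33 members and the large subunit 51. Canonical subunits made up 77 of the members, and 7 were paralogs of a canonical gene (Rps27l, Rps27rt, Rpl3l, Rpl7l1, Rpl22l1, Rpl36al and Rpl39l). No measured value entered the choice.

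Total RNA of whole liver at week 7 was sequenced from 4 Fl/Fl mice (replicates 5, 7, 9 and 10) and from 4 LKO mice (replicates 3, 4, 12 and 13). LKO livers carry a liver-restricted deletion of Pkd1l1, a polycystin-family gene, and Fl/Fl livers are the controls. Replicate 10 of Fl/Fl was male and the other 7 animals were female, and all 8 had the same treatment label, NT. No source used here gives the Cre driver, the age at deletion or the strain.

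Ribosomal proteins fold onto ribosomal RNA to form a small subunit, which reads the mRNA, and a large subunit, which joins amino acids and extrudes the chain through a tunnel. Nearly all are needed in matched amounts, and their genes are among the most transcribed in any cell. Their short mRNAs start with an unbroken run of C and T, the terminal oligopyrimidine (TOP) motif, through which the growth kinase mTORC1 and the RNA-binding protein LARP1 set their translation. Bulk RNA does not show that step. In liver, a secretory organ with much protein synthesis, translation of these mRNAs follows feeding.

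Runs of C and T were searched near the annotated starts. RefSeq promoters of build GRCm38.p6 (250 bases before to 50 after the annotated start) were found for 64 members, with 76 starts in all. A run of at least 8 C or T on the gene's strand, within 20 bases before to 40 after the start, was present in 60.5% of these promoters and in 21.8% of all 32851 promoters. The 30 bases around the longest run are shown for 3 genes that rose in LKO (Rplp2, Rpl23 and Rps15) and for 3 of the genes with the lowest fold changes (Rpl39, Rps27 and Rps21), with the full run in capitals.
Rplp2, chr7:141447636-141447665, plus strand: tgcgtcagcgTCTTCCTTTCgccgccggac
Rpl23, chr11:97782404-97782433, minus strand: gagtgggcggggCCTCCCgttcatatccca
Rps15, chr10:80292446-80292475, plus strand: gcagcccgtaCTTCCTTTTCCgagtaaccg
Rpl39, chrX:37085225-37085254, minus strand: cgagtcatccaTCCCCCCCTaagctccgcc
Rps27, chr3:90213632-90213661, minus strand: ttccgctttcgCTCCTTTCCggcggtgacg
Rps21, chr2:180257365-180257394, plus strand: accgaggacccgCCCTCCTgcccaatagtg
The run was 10, 6 and 11 bases long in the first 3 genes and 9, 9 and 7 in the last 3, so its length did not separate them. It spans the annotated start in Rplp2, Rps27 and Rps21, and lies to one side of it in Rpl23, Rps15 and Rpl39. The motif CCGGAAG, the core bound by ETS factors such as GABPA, was found on either strand in 35.5% of member promoters and in 8.86% of all promoters. AAGATGG, which overlaps the core read by YY1, was in 15.8% against 6.34%. TATAAA was in 9.21% against 13.6%, and CCAAT in 30.3% against 37.4%. These letters describe the windows and do not show that a factor was bound.

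The libraries held 71491723 to 76622375 counted reads, and 3 reads in a library were worth 0.0385 to 0.0428 CPM (reads per 1e6 reads of a TMM-scaled library). Pkd1l1 itself had 0 to 2 reads per library in both genotypes, too few to check the genotype labels. Fl/Fl 5 and Fl/Fl 7 stood apart from the other 6 libraries for the ribosomal protein genes. Across 79 members with a mean of at least 1 CPM, their deviations from the mean of the 8 libraries ran together (Pearson r = 0.89), and the r of either with the other libraries was -0.40 to -0.93. The other 6 libraries were not 1 group. Fl/Fl 9 had an r of only -0.01 to 0.37 with the LKO libraries and 0.33 with Fl/Fl 10. These values share the 8-library mean and the depth of each library, so they are a description. Fl/Fl 10, the male library, had the highest level, a median of 0.39 log2 above the mean of the female Fl/Fl libraries, and sex and this library cannot be told apart. For these reasons genotype was tested with a sex term, which makes it a comparison of the 4 LKO with the 3 female Fl/Fl libraries, and values without Fl/Fl 5 and 7 are given beside the results.

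**Figure D1:**
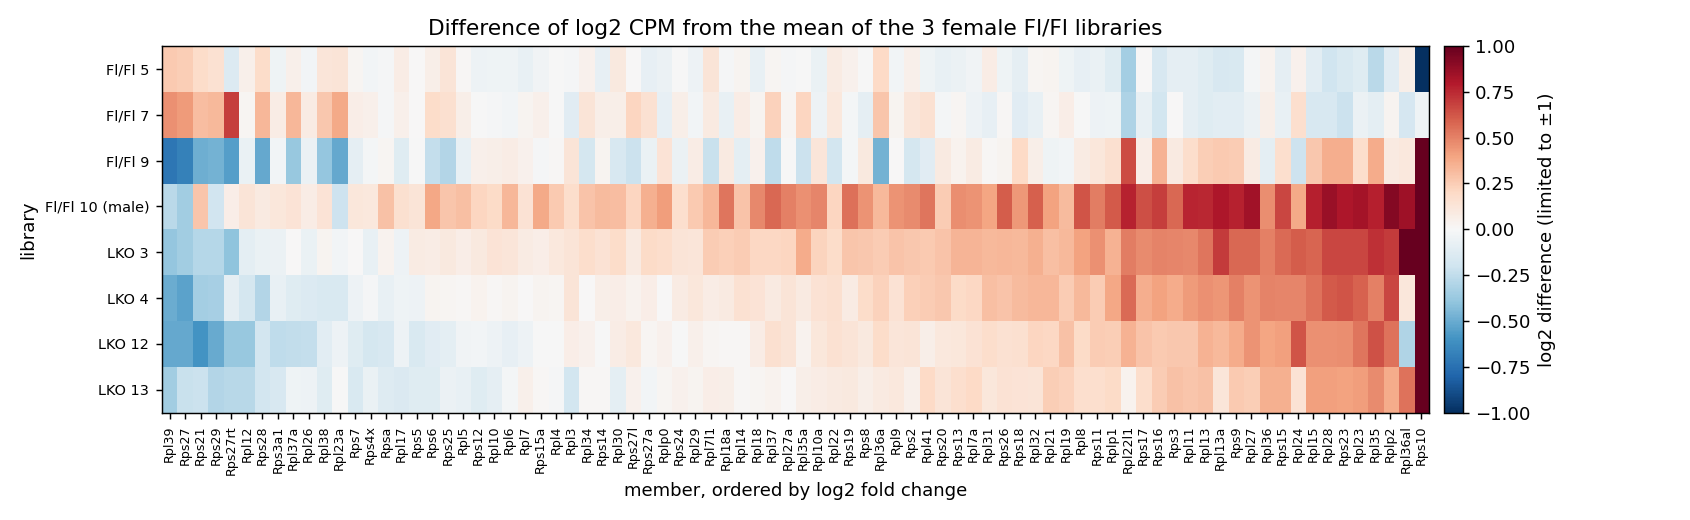
Each column is 1 of the 82 tested ribosomal protein genes, ordered by fold change, and each row is 1 library. Colour is the difference of log2 CPM from the mean of the 3 female Fl/Fl libraries, limited to ±1. The differences of Fl/Fl 5, 7 and 9 sum to 0 for each gene by construction, so Fl/Fl 9 has the opposite signs wherever 5 and 7 agree. The male library is the reddest row, with a median of 0.39.

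Markers of the labelled cell types were detected in every library group. The summed level of 8 hepatocyte markers was 123780 to 133762 CPM in female Fl/Fl, 118585 to 131578 in LKO and 82121 in the male library. The sum of 8 cholangiocyte markers was 65.7 to 78.9 CPM in female Fl/Fl, 54.5 to 65.6 in LKO and 56.8 in the male library. Sums for the 8 B and plasma cell markers were 11.5 to 12.8 CPM in female Fl/Fl and 6.82 to 11.6 in LKO. Those for 7 erythroid markers were 53.7 to 90.4 CPM in female Fl/Fl, 52.6 to 73.3 in LKO and 198 in the male library. The macrophage, T and NK cell, endothelial and stellate lists overlapped between the genotypes. Of the 63 markers listed in these 8 groups, 61 could be tested. In edgeR 0 passed an adjusted p of 0.05, and none was at 0 in all libraries. By an unadjusted p under 0.05, 2 were higher and 5 lower in LKO, beside 9.22% and 6.86% of all tested genes. Their part in the results below was not tested, and in bulk liver fewer cells of a type and less RNA per cell cannot be told apart.

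Whether loss of Pkd1l1 in liver moved the ribosomal protein mRNAs was asked for 82 members, since Rpl39l and Rpl3l had too few reads to test. Rplp2, Rpl23, Rpl36 and Rps15 rose in LKO by 1.35 to 1.49-fold, and 0 members fell. Among all 16420 tested genes, 1.41% passed the same threshold, 1.02% as higher and 0.396% as lower. The members as a group lay a little above 0, with a median log2 fold change of 0.13, 61 positive and 21 negative, where the median of all tested genes was -0.0032. Fold changes spread from -0.52 for Rpl39 to 1.28 for Rps10, a range of both signs. Adjusted p-values are two-sided, from the quasi-likelihood F test of edgeR, corrected over all tested genes by the Benjamini-Hochberg method.

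In 27 members every LKO library lay above every female Fl/Fl library, an arrangement found for 8.85% of all tested genes. The reverse held for Rpl12 and Rps3a1, against 6.22% of all tested genes. At an unadjusted p under 0.05, 29 members were higher (9.22% of all genes) and 2 were lower, Rps29 and Rpl12 (6.86%). DESeq2 called 13 members higher and 0 lower, but it also called more genes of any kind than edgeR, as counted in the last section. By unadjusted p in DESeq2, 26 members were higher and 5 lower (5.79% and 4.57% of all genes in that fit). The limma voom fit called the same 4 genes as edgeR, with 29 higher and 1 lower by unadjusted p (9.32% and 6.94%). Without Fl/Fl 5 and 7, which leaves Fl/Fl 9 as the only female control, the members' median log2 fold change was 0.17. With genotype alone and no sex term, 0 members were called, 1 was higher and 2 lower by unadjusted p (3.98% and 4.04% of all genes), and the median was 0.0081.

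**Figure D2:**
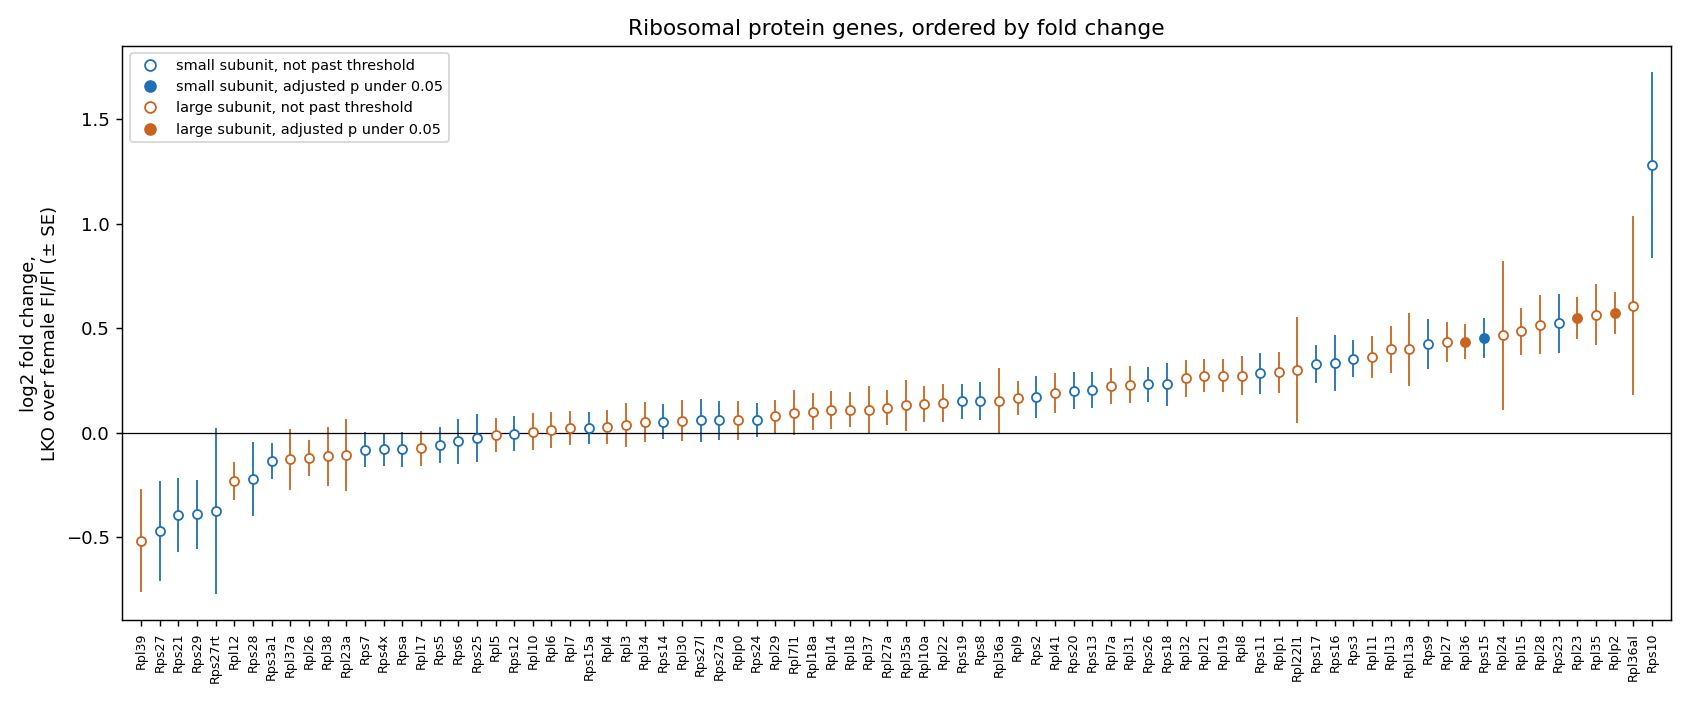
Points are log2 fold changes of LKO over female Fl/Fl for 82 ribosomal protein genes in rising order, with bars of 1 standard error; filled points have an adjusted p under 0.05. The 4 filled points lie between 0.44 and 0.57, and the lowest open points are Rpl39 and Rps27.

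The member with the smallest p belonged to the stalk of the large subunit, the flexible arm of acidic proteins that recruits elongation factors. Rplp2, a stalk protein (ENSMUSG00000025508, chromosome 7, 141447370 to 141451585, mm10), was at 61.8, 68.1 and 71.1 CPM in Fl/Fl 5, 7 and 9, and at 108, 107, 97.2 and 86.3 CPM in LKO 3, 4, 12 and 13. All 4 LKO values lay above the 3 female controls, and the male control was higher than all of them at 126 CPM. Its mean was 67.0 ± 4.76 CPM (SD, n = 3) in female Fl/Fl and 99.6 ± 10.2 CPM (SD, n = 4) in LKO, a 1.49-fold rise (log2 0.57 ± 0.10 SE, adjusted p = 0.0270 in edgeR). The log2 fold change was 0.48 without Fl/Fl 5 and 7, against Fl/Fl 9 alone.

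The other stalk genes moved less. Rplp1, the partner of Rplp2 and the member with the highest FPKM, was at 263 ± 27.2 CPM in female Fl/Fl and 322 ± 19.8 CPM in LKO (log2 0.29 ± 0.10 SE, adjusted p = 0.182). Its LKO values, 300 to 343 CPM, all lay above the female controls, 241 to 294 CPM, and the male library held 402 CPM. Rplp0, the base of the stalk, differed by 0.06 ± 0.09 SE on the log2 scale (adjusted p = 0.809), with overlapping groups. Rpl12, which sits where the stalk joins the subunit, was at 156 to 170 CPM in female Fl/Fl and 126 to 153 CPM in LKO (log2 -0.23 ± 0.09 SE, adjusted p = 0.248). The difference between the stalk genes was not tested.

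Rpl23 and Rpl36 were the other large-subunit genes that rose. Rpl23, at the face that meets the small subunit (ENSMUSG00000071415, chromosome 11, 97777527 to 97782437), had 84.9, 88.9 and 104 CPM in Fl/Fl 5, 7 and 9 and 147, 139, 134 and 124 CPM in LKO 3, 4, 12 and 13. The groups did not overlap, and the male library held 164 CPM. The rise was 1.46-fold, from 92.7 ± 10.3 to 136 ± 9.62 CPM (log2 0.55 ± 0.10 SE, adjusted p = 0.0300). Without Fl/Fl 5 and 7, against Fl/Fl 9 alone, it was 0.37 on the log2 scale.

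Rpl36 is a protein of the eukaryotic large subunit (ENSMUSG00000057863, chromosome 17, 56613416 to 56614243). Its level was 64.4, 65.4 and 58.5 CPM in the female controls 5, 7 and 9, and 88.8, 88.5, 82.3 and 80.1 CPM in LKO 3, 4, 12 and 13. The male library, at 86.5 CPM, fell inside the LKO range. Rpl36 rose 1.35-fold, from 62.8 ± 3.71 to 84.9 ± 4.41 CPM (log2 0.44 ± 0.09 SE, adjusted p = 0.0372). With trends on gene length and GC content removed from each library its log2 fold change was 0.03 (adjusted p = 0.928). Its mRNA is short and, at 60.8% G and C, the richest of the 4 genes that rose. Leaving out Fl/Fl 5 and 7, which left control 9 alone, gave a log2 fold change of 0.53.

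Rps15 was the small-subunit gene that rose. It lies in the head of the subunit near the decoding site and is needed for export of the precursor from the nucleus (ENSMUSG00000063457, chromosome 10, 80292453 to 80294114). Rps15 had 94.9, 96.0 and 114 CPM in Fl/Fl 5, 7 and 9, and 150, 142, 134 and 129 CPM in LKO 3, 4, 12 and 13. The groups did not overlap, and the male library held 160 CPM. The rise was 1.37-fold, from 101 ± 10.5 to 139 ± 9.14 CPM (log2 0.45 ± 0.10 SE, adjusted p = 0.0483). It was 0.13 on the log2 scale with both trends removed (adjusted p = 0.541). Without Fl/Fl 5 and 7, against Fl/Fl 9 alone, it was 0.28.

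The 4 calls depended on single libraries. Leaving out Fl/Fl 5, Fl/Fl 7, LKO 4 or LKO 12 left 0 members past the threshold in edgeR, where 4, 37, 47 and 141 genes of any kind passed. In these fits 19, 19, 23 and 30 members were higher by an unadjusted p under 0.05, beside 5.81%, 6.77%, 6.68% and 8.20% of all genes, and 0, 0, 1 and 0 members were lower, beside 4.30%, 5.48%, 4.91% and 6.57%. Leaving out LKO 3 or LKO 13 left Rplp2 alone among the members, with 185 and 58 genes in all. Leaving out Fl/Fl 9 gave 16 members higher and 4 lower, among 476 and 251 genes in all. Over 22 other distinct fits with the same threshold, Rplp2 passed in 14, Rpl23 in 12, Rpl36 in 10 and Rps15 in 5, and their log2 fold changes were positive in all 22.

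**Figure D3:**
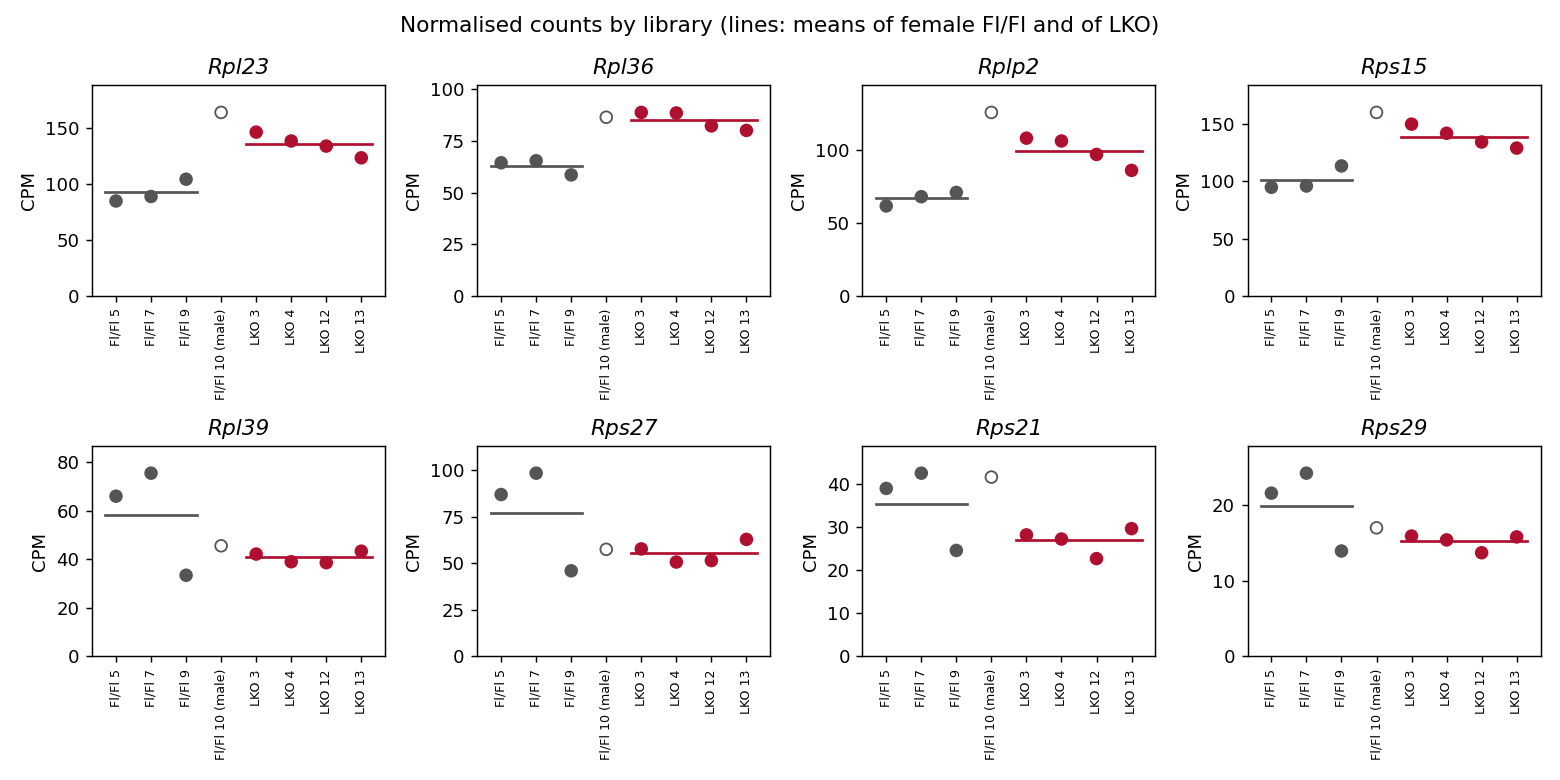
Each panel gives the CPM of 1 gene in the 8 libraries on an axis from 0; grey points are female Fl/Fl, the open point is the male Fl/Fl library, red points are LKO, and lines are group means. In the upper row, the genes that rose, all LKO points lie above the female controls. In the lower row, Fl/Fl 5 and 7 are high and Fl/Fl 9 is near or below the LKO points. The open point for Rps21 lies between Fl/Fl 5 and 7.

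The 33 tested small-subunit genes, Rps15 included, had a median log2 fold change of 0.06, with 20 positive and 13 negative, and 1 passed the test. The median was 0.16 with 28 positive without Fl/Fl 5 and 7, and -0.0073 with 16 positive without the sex term. Rps2, at the mRNA entry of the small subunit, was at 433 ± 44.7 CPM in female Fl/Fl and 487 ± 33.9 CPM in LKO (log2 0.17 ± 0.10 SE, adjusted p = 0.446). Rpsa, also known as the laminin receptor precursor, was at 367 ± 4.57 and 348 ± 21.2 CPM (log2 -0.08 ± 0.08 SE, adjusted p = 0.703). Rps6, the substrate of S6 kinase and a common readout of mTORC1 activity, differed by -0.04 ± 0.11 SE (adjusted p = 0.898). Rps27a, made as a fusion with ubiquitin, differed by 0.06 ± 0.09 SE on the log2 scale (adjusted p = 0.813). Rps3a1, on the platform of the subunit, was lower in all 4 LKO libraries, 210 to 241 CPM against 243 to 264 CPM in female Fl/Fl, yet did not pass (log2 -0.14 ± 0.09 SE, adjusted p = 0.483).

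Rps23, which contacts the decoding site, was at 70.3 to 105 CPM in female Fl/Fl and 108 to 129 CPM in LKO (log2 0.52 ± 0.14 SE, adjusted p = 0.104). Rps10, near the mRNA entry and a target of ubiquitination when ribosomes collide, had the largest fold change of any member on very few reads. Its counts were 18, 39 and 87 reads in Fl/Fl 5, 7 and 9, 111, 139, 84 and 120 reads in LKO 3, 4, 12 and 13, and 133 reads in Fl/Fl 10. Fl/Fl 9 overlapped LKO 12, and the log2 fold change of 1.28 ± 0.45 SE did not pass (adjusted p = 0.195). It was 0.41 without Fl/Fl 5 and 7, against Fl/Fl 9 alone.

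Of 49 tested large-subunit members, 41 had a positive log2 fold change and 8 a negative one, with a median of 0.14, and 3 passed the test. Over all tested genes 49.5% were positive. Without Fl/Fl 5 and 7, 40 large-subunit members were positive (median 0.19), and 29 were without the sex term (median 0.032). The difference between the subunits was not tested. Rpl35, at the exit of the peptide tunnel, was at 23.1 to 36.2 CPM in female Fl/Fl and 38.8 to 46.5 CPM in LKO (log2 0.56 ± 0.15 SE, adjusted p = 0.0941). Rpl11, which with Rpl5 and the 5S RNA forms a particle that can bind Mdm2, was at 116 ± 12.6 and 150 ± 10.8 CPM (log2 0.36 ± 0.10 SE, adjusted p = 0.106). Its partner Rpl5 differed by -0.01 ± 0.08 SE (adjusted p = 0.970). Without the Fl/Fl 5 and 7 libraries the log2 fold changes were 0.21 for Rpl35, 0.18 for Rpl11, 0.12 for Rplp1 and 0.17 for Rps23 of the small subunit. Rpl4 and Rpl17 line the peptide tunnel and were among the 5 members with the highest FPKM. Their log2 fold changes were 0.03 ± 0.08 SE (adjusted p = 0.907) and -0.07 ± 0.08 SE (adjusted p = 0.722).

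The lowest fold changes belonged to members with very short coding sequences, and in these Fl/Fl 5 and 7 were the high female controls. Of 11 tested members with a coding sequence under 300 bases, 8 had a negative log2 fold change, with a median of -0.22, and 0 passed in edgeR. At an unadjusted p under 0.05, 0 were higher and 1 lower (Rps29), beside 9.22% and 6.86% of all tested genes. The other 71 had a median of 0.15. All tested protein-coding genes with such short coding sequences (285) had a median of 0.12. Rpl39, a small protein of the tunnel wall, was at 66.0, 75.4 and 33.4 CPM in Fl/Fl 5, 7 and 9, and at 42.1, 39.0, 38.6 and 43.3 CPM in LKO 3, 4, 12 and 13. The first 2 controls were high and Fl/Fl 9 lay below every LKO library, so the groups overlapped (log2 -0.52 ± 0.25 SE, adjusted p = 0.361).

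Rps27, a zinc-binding protein of the small subunit, showed the same order, with 86.9, 98.4 and 46.0 CPM in Fl/Fl 5, 7 and 9 and 57.7, 50.7, 51.5 and 62.8 CPM in LKO 3, 4, 12 and 13 (log2 -0.47 ± 0.24 SE, adjusted p = 0.385). Rps21, on the solvent side of the small subunit, was at 39.1, 42.6 and 24.6 CPM in Fl/Fl 5, 7 and 9 and at 22.7 to 29.7 CPM in LKO (log2 -0.39 ± 0.18 SE, adjusted p = 0.316). Rps29, a zinc-binding protein of the head, was at 21.5, 24.2 and 13.9 CPM in Fl/Fl 5, 7 and 9 and at 13.7 to 15.9 CPM in LKO (log2 -0.39 ± 0.16 SE, adjusted p = 0.280). In all of these, Fl/Fl 9 lay within or below the LKO values. Without Fl/Fl 5 and 7, against Fl/Fl 9 alone, the log2 fold changes turned positive. They were 0.28 for Rpl39, 0.27 for Rps27, 0.12 for Rps21 and 0.12 for Rps29. Without Fl/Fl 9 all 4 passed as lower in LKO, with log2 values of -0.80, -0.74, -0.60 and -0.60 and adjusted p of 0.00216, 0.00526, 0.0164 and 0.0135 in that order.

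Coding starts are shown to let the letters behind GC content be seen. The genes have the highest and lowest share of G or C at last codon positions in the first 60 coding bases. They are Rpl36 and Rpl23 among the genes that rose, and Rpl12 and Rpl39 (level with Rps27) at the low end. Over the whole mRNA, Rps29 (53.1% G and C) was richer than Rpl12 (51.6%). The first 60 coding bases are given from GENCODE M21 (build GRCm38), with G or C at the last position of a codon in capitals.
Rpl36: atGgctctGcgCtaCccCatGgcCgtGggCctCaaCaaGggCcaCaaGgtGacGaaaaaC
Rpl23: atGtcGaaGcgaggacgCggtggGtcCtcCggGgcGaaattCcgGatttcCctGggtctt
Rpl12: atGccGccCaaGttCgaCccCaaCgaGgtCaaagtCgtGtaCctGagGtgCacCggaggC
Rpl39: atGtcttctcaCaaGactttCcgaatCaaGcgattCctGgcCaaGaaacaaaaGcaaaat
In such stretches the share of last positions with G or C was 90% in Rpl36, 85% in Rplp2 and Rps15 and 65% in Rpl23. It was 90% in Rpl12, 85% in Rps21, 75% in Rps29 and 55% in Rpl39 and Rps27, so the 2 sets overlapped. Over whole mRNAs, Spearman's rho of the log2 fold change with GC content was 0.23 across 82 members and 0.35 across 13734 tested genes with an annotated mRNA. The rho with gene length in the deposited table was 0.03 across members and -0.19 across 16420 genes. These are correlations across genes, which share the 7 libraries compared and are not independent replicates.

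Fold changes also varied with gene length among all genes. Tested protein-coding genes under 1000 bases had a median log2 fold change of 0.21 (24 of 326 higher and 1 lower past the threshold), those of 1000 to 2000 bases 0.11 (29 of 1580 higher and 2 lower), and longer ones -0.02. Members in the same ranges had medians of -0.07 (13 genes), 0.16 (34 genes) and 0.12 (35 genes). The members' median lay below that of protein-coding genes in the shortest range and above it in both others. At an unadjusted p under 0.05, 87 of 326, 261 of 1580 and 965 of 11853 protein-coding genes were higher, in order of length. Lower were 5, 45 and 921. Among members 5 of 13, 12 of 34 and 12 of 35 were higher, and 1, 0 and 1 lower. These differences were not tested. With both trends removed in each library the members' median was 0.04, with 48 of 82 positive and 0 called in edgeR (at an unadjusted p under 0.05, 14 higher and 11 lower, beside 7.67% and 5.62% of all genes in that fit).

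**Figure D4:**
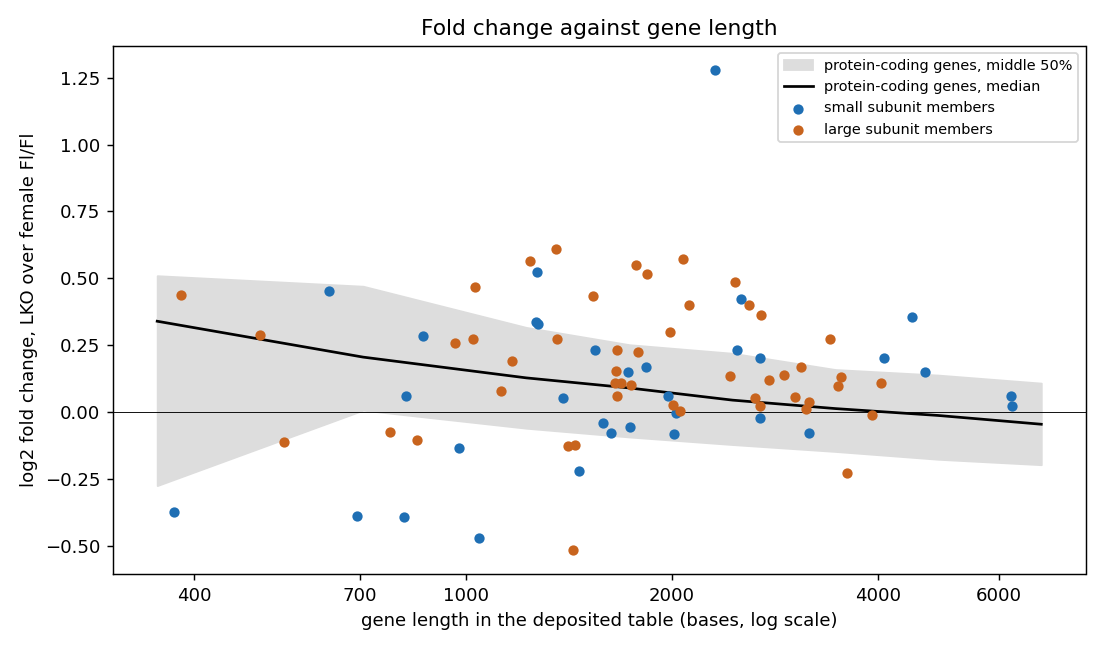
Points are the 82 tested members by gene length in the deposited table (log axis, bases) and log2 fold change; the line and band are the median and middle 50% of tested protein-coding genes in bins of length. The line falls from 0.34 in the shortest bin to -0.05 in the longest, and the members with the lowest values lie at the short end, below the band.

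The members took 1.02% to 1.32% of all reads in each library. The share was 1.05 ± 0.0285% (SD, n = 3) in female Fl/Fl and 1.11 ± 0.0616% (SD, n = 4) in LKO, and the groups overlapped, since LKO 13 at 1.067% and Fl/Fl 9 at 1.068% were alike. LKO 3 had 1.20% and the male library 1.32%. Reads listed under 155 ribosomal protein pseudogenes were 0.427% to 0.484% of the reads of members and pseudogenes together.

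Levels between genes were compared per length. By the deposited FPKM the most abundant members, as means over the 8 libraries, were Rplp1 at 646, Rps2 at 273, Rps3a1 at 258, Rpl17 at 249 and Rpl4 at 236 FPKM. The deposited gene length had a median of 1736.5 bases over the members, where 1 annotated coding mRNA per gene had a median of 777.5. The ratio of these lengths was 1 for Rplp1 and 7.18 for Rpl35a, so FPKM understates some members more than others. By CPM per kilobase of that mRNA, Rplp1 was still the highest at 622, followed by Rpl10 at 539 and Rps2 at 439, and Rps18 moved from rank 31 to rank 4. Spearman's rho of the 2 scales over the 84 members was 0.85. The fold changes above do not use length.

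**Figure D5:**
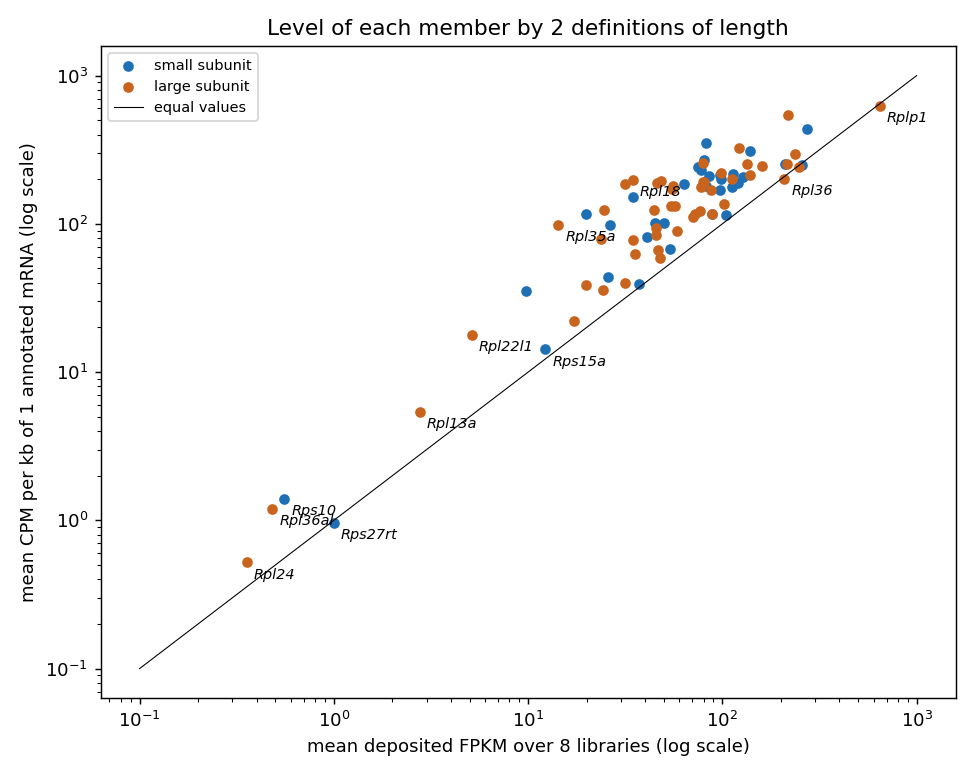
Each point is a ribosomal protein gene (2 members near 0 are left out): mean deposited FPKM over 8 libraries against mean CPM per kilobase of 1 annotated mRNA, both on log axes, with a line of equal values. Most points lie above the line, and Rpl24, Rps10, Rpl36al and Rps27rt lie far below the other members.

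Some canonical members were nearly absent from the counts. Rpl24 had 19 to 33 reads per library, Rps10 18 to 139 and Rpl13a 300 to 550, against means of at least 10 FPKM for 75 of the 84 members. Many members have near-identical copies elsewhere in the genome. In the annotated mRNAs a median of 40.6% of 100-base windows also occurred in a transcript of another gene, 8 members had 0% and 36 had more than 50%. The shared part was 80.1% for Rpl24, 47.7% for Rps10, 55.2% for Rpl13a, 98.4% for Rps27, 55.3% for Rpl36, 23.3% for Rpl23, 17.2% for Rplp2 and 10.2% for Rps15. The sources used here do not give how reads that match several genes were counted, so the levels of members with large shared parts are uncertain. The 27 tested members under 25% had a median log2 fold change of 0.10, and the 16 over 75% had 0.02. Both lay below the median of all 82 tested members, 0.13, and the members between these limits were not summarised apart.

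The paralogs ranged from liver-abundant to undetected. Rps27l, a relative of Rps27 that p53 can induce, ranked 18 of 84 by FPKM, at 112, with 84.9 ± 12.5 CPM in female Fl/Fl and 88.5 ± 1.99 CPM in LKO (log2 0.06 ± 0.10 SE, adjusted p = 0.829). Its coding sequence is 76.2% identical to that of Rps27. Rps27rt, a retrogene whose coding sequence is 100% identical to that of Rps27, had 20 to 48 reads per library, and its highest count was in Fl/Fl 7, as for Rps27 itself (log2 -0.37 ± 0.40 SE, adjusted p = 0.699). Reads of the 2 genes cannot be told apart within that sequence.

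Rpl22l1, a relative of the RNA-binding protein Rpl22 with 67.7% identity, was at 6.14, 6.27 and 12.2 CPM in Fl/Fl 5, 7 and 9 and at 7.98 to 11.5 CPM in LKO (log2 0.30 ± 0.25 SE, adjusted p = 0.612). Fl/Fl 5 and 7 were its lowest libraries, and without them the log2 fold change was -0.28. Rpl22 was at 72.2 to 87.9 CPM in female Fl/Fl and 87.0 to 92.9 CPM in LKO (log2 0.14 ± 0.09 SE, adjusted p = 0.490). Rpl7l1, with 55.4% identity to Rpl7, had 54.1 ± 6.96 and 57.8 ± 4.28 CPM (log2 0.10 ± 0.11 SE, adjusted p = 0.710), and Rpl7 differed by 0.02 ± 0.08 SE (adjusted p = 0.930).

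Rpl36al, 87.7% identical to Rpl36a, had 28 to 97 reads per library, with the most in LKO 3 (log2 0.61 ± 0.43 SE, adjusted p = 0.532). Rpl36a was at 24.6 to 41.4 CPM in female Fl/Fl and 36.4 to 40.7 CPM in LKO (log2 0.15 ± 0.16 SE, adjusted p = 0.691). Rpl3l, the form of striated muscle, had 0 to 20 reads per library with the most in the male one, while Rpl3 was at 231 ± 19.4 and 237 ± 23.1 CPM (log2 0.04 ± 0.10 SE, adjusted p = 0.904). Rpl39l, the form of testis, had 6 reads in Fl/Fl 7 and 0 in the other 7 libraries, each of which allows up to 0.0428 CPM by counting error.

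Fau and Rack1 also encode components of the ribosome but fall outside the naming rule, and of these 2 genes 0 passed in edgeR, with 0 at an unadjusted p under 0.05. Fau, a fusion with a ubiquitin-like protein, was at 147 ± 20.5 and 170 ± 13.7 CPM (log2 0.21 ± 0.11 SE, adjusted p = 0.376), and the scaffold Rack1 at 244 ± 8.29 and 236 ± 15.3 CPM (log2 -0.05 ± 0.09 SE, adjusted p = 0.838).

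Further genes around the ribosomal proteins were taken from 4 lists by function, which held no call in edgeR. Of 23 genes listed as other TOP mRNAs, mainly elongation and initiation factors, 0 passed, with a median log2 fold change of 0.04. Their TOP motifs were not checked here. At an unadjusted p under 0.05, 3 were higher and 1 lower, beside 9.22% and 6.86% of all tested genes. The splicing factor Hnrnpa1 (0.24 ± 0.09 SE, adjusted p = 0.247) and the RNA-binding protein Ybx1 (0.21 ± 0.09 SE, adjusted p = 0.291) had the smallest p. Of 15 chaperones and importins that escort ribosomal proteins, 0 passed (0 higher and 0 lower by unadjusted p), with a median of -0.03. The smallest p belonged to the histone chaperone Nap1l1 (-0.21 ± 0.10 SE, adjusted p = 0.328) and to Bccip, which escorts Rpl23 (0.15 ± 0.09 SE, adjusted p = 0.428).

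Among 28 genes of mTORC1 and TOP mRNA control, 0 passed, with a median of 0.04. At an unadjusted p under 0.05, 3 were higher and 2 lower, beside 9.22% and 6.86% of all tested genes. Ddit4, a stress-induced inhibitor of mTORC1, was at 46.8 to 60.9 CPM in female Fl/Fl and 65.1 to 118 CPM in LKO (log2 0.84 ± 0.19 SE, adjusted p = 0.0688). Sesn3, another inhibitor, was at 54.8 to 60.3 and 44.8 to 48.1 CPM (log2 -0.30 ± 0.08 SE, adjusted p = 0.101). Of 19 factors that bind the promoters of ribosomal protein genes, 0 passed, with a median of -0.07. By unadjusted p, 0 were higher and 5 lower, beside the same 9.22% and 6.86% of all tested genes. Myc, which drives ribosome production, was at 13.9, 12.6 and 37.0 CPM in Fl/Fl 5, 7 and 9 and at 2.85 to 6.56 CPM in LKO, without overlap, and 5.16 CPM in the male library (log2 -2.23 ± 0.52 SE, adjusted p = 0.113). The ETS factor Elf1 was at 33.3 to 41.2 and 25.4 to 31.6 CPM (log2 -0.43 ± 0.11 SE, adjusted p = 0.0774).

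Free ribosomal proteins such as Rpl5, Rpl11 and Rpl23 can bind Mdm2 and release p53. Of 5 genes of that circuit 0 passed. An unadjusted p under 0.05 was reached by 1 higher and 0 lower gene, beside 9.22% and 6.86% of all tested genes. Cdkn1a, a p53 target that stops the cell cycle, was at 19.7 to 26.3 CPM in female Fl/Fl, 19.3 in the male library, and 161, 126, 38.8 and 43.7 CPM in LKO 3, 4, 12 and 13 (log2 1.96 ± 0.62 SE, adjusted p = 0.217). Mdm4, an inhibitor of p53, differed by -0.18 ± 0.09 SE on the log2 scale (adjusted p = 0.360). LKO 3 and 4, the libraries with the most Cdkn1a, also had the highest shares of ribosomal protein reads among LKO, 1.20% and 1.10%. LKO 12 was close to LKO 4, at 1.08%. The male library had the highest share of all, 1.32%, and the least Cdkn1a. Whether share and Cdkn1a go together was not tested.

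In the authors' deposited table of fold changes, 0 of the 84 members passed an adjusted p of 0.05 and 44 had a positive value. The share of all genes passing there is not given here. These log2 fold changes were near those of the fit without a sex term, 0.29 and 0.30 for Rpl23 and 0.28 and 0.28 for Rplp2. In that fit 0 of 82 members and 1 gene of any kind passed, with 45 members positive. The comparison with female Fl/Fl above is thus a different one.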

How the data were processed

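The authors deposited 1 table holding unnormalised read counts (whole numbers), signal values that are these counts divided by a size factor per library, FPKM made from the counts and the listed gene length, and their own log2 fold changes with p-values. The submitters' processing notes name fastp, STAR, HTSeq, featureCounts, DESeq, DESeq2, edgeR and mm10. Roles, versions and the strand setting are not given in the sources used here.

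Counts of the 8 libraries were fitted in R 4.3.3 with edgeR 4.0.16 (filterByExpr by genotype, TMM, robust quasi-likelihood, terms for sex and genotype), and 16420 genes were adjusted together. The biological coefficient of variation was 20.4%. DESeq2 1.42.0 and limma 3.58.1 served as alternatives. The labels name no litters or preparation days, and a p-value here reflects only how these libraries vary. The naming rule for members uses no measured value, but the rule, the lists and the tests were set with earlier results of these data known.

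Named genes were every member past the threshold, the 5 most abundant by FPKM, the 5 largest fold changes in each direction at 1 CPM or more, the stalk, Rpsa, Rps6, Rpl5, Rpl11, Rps27a, the paralogs with their partners, and from each list the called genes or else the 2 with the smallest p. Rps18, Rpl10, Rpl35a, Rpl24 and Rpl13a were named after their values were seen. A further gene that this rule picks is not reported here. On simulated data with 200 of 16144 genes changed, this comparison recovered 25% of log2 changes of 0.5 and 85% of changes of 1, and 7.56% of calls were false. mRNA lengths, GC content and coding sequences are from GENCODE M21.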

Additional observations from a re-analysis of the deposited data

Results flagged for a closer look

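A total of 72 groups of 4 libraries (36 quantities in each genotype) were searched for a library far from the other 3, by Dixon's ratio of gap to range above 0.829. Chance flags about 1 in 20 such groups, and 6 were found. In 4 of them the male library, Fl/Fl 10, was high among the Fl/Fl libraries: its median deviation of members was 0.39 log2, Rpl4 was at 528 CPM, Rplp2 at 126 CPM and Rpsa at 449 CPM. Rpl17 was low in LKO 13 at 170 CPM, where the nearest LKO library had 181 CPM. Rpl39l had 0.0769 CPM in Fl/Fl 7, from 6 reads, and 0 in the other libraries.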

How the results depend on the processing

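Of the settings tried, fits on the 7 female libraries, 4 other scalings, a filter of 10 reads in 4 libraries and limma voom kept 3 or 4 members past the threshold, all among the 4 genes named. Apart from limma voom, these fits called 202 to 232 genes of any kind. Other settings gave these counts for members and for all genes, in that order: no sex term 0 and 1, no filter 11 and 462, DESeq2 13 and 804, limma trend on log2(FPKM + 1) 0 and 140, without Fl/Fl 5 and 7 0 and 26, an adjusted p of 0.01 0 and 18, and of 0.1 8 and 531. With the gene length trend removed the counts were 2 and 209. With the GC trend removed the counts were 2 and 134, and with both trends removed 0 and 114; both GC settings were added after seeing the data. Leaving out 1 library gave 0 to 20 members and 4 to 727 genes. The members' median log2 fold change was 0.0081 without the sex term, 0.043 with both trends removed and 0.080 to 0.15 with a library left out. The difference in read share, 0.0635 percentage points, was 0.0336 to 0.0784 with a library left out. Causes were not tested.

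Among the genes named by rule and the subunit medians, signs turned as follows, on the log2 scale. Without a sex term: the small-subunit median -0.0073, Rpl3 -0.0070, Rpl4 -0.041, Rpl7 -0.015, Rplp0 -0.055 and Rps27a -0.037. Without Fl/Fl 5 and 7: Rpl17 0.044, Rpl22l1 -0.28, Rpl3 -0.093, Rpl39 0.28, Rpl5 0.054, Rpl7 -0.027, Rplp0 -0.084, Rps21 0.12, Rps27 0.27, Rps27rt 0.26, Rps29 0.12 and Rps6 0.20. With the length trend removed: Rpl4 -0.022, Rpl5 0.00034, Rpl7 -0.00083, Rplp0 -0.0087 and Rps27l -0.057. With the GC trend removed: Rpl5 0.10. With both removed: Rpl3 -0.017, Rpl4 -0.023, Rpl5 0.085, Rplp0 -0.081, Rplp1 -0.053 and Rps27l -0.053. With 1 library left out: Rpl3 -0.026 to 0.098, Rpl4 -0.0036 to 0.039, Rpl5 -0.049 to 0.013, Rpl7 -0.013 to 0.046, Rpl7l1 -0.010 to 0.16, Rpl36a -0.052 to 0.28, Rps6 -0.16 to 0.048, Rps27l -0.046 to 0.17 and Rps27rt -0.62 to 0.043. No paired analysis was possible because the replicate numbers differ between the genotypes. Low read counts limit Rpl24, Rps10, Rps27rt, Rpl36al, Rpl3l and Rpl39l, and the cause of these counts was not tested.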
